A study of Mus musculus with 4 samples.

Results

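The Hox genes of mouse were read on all 4 arrays of a study of induced neural stem cells, by cluster and by paralog group. They were taken by symbol, as Hoxa, Hoxb, Hoxc or Hoxd followed by a number, without the antisense genes. Of the 38 genes described here, 33 had a probe set of their own among 18193 genes on the array, with 48 probe sets in all. Hoxb8 and Hoxd4 were covered by probe sets shared with a neighbour, and no probe set was named for Hoxa6, Hoxc11 and Hoxc12 in the annotation used here. The series has 4 samples of total RNA on an Affymetrix Mouse Genome 430 2.0 array. One is mouse embryonic fibroblasts (MEF) and another is primary-derived neural stem cells (NSC). The other two are induced neural stem cells, obtained with 13 factors in iNSC_13F and 14 factors in iNSC_14F. N2 medium supplemented with EGF, bFGF and laminin was used for NSC and both induced cultures, while that of the fibroblasts was not given in the sources used here. Strain, age, the starting cell of each induced sample, the part of the brain or embryo that was used and the names of the factors were not given there either, so it is not known whether a Hox gene was among the factors. Each group has 1 array, so no difference below has a replicate check and no p-value or SD is given. In a bulk sample such as these, fewer cells with a gene on and less RNA per cell cannot be told apart.

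Hox genes encode homeodomain transcription factors that give cells a position along the axis from head to tail. They lie in 4 clusters, and genes at the same place in different clusters form a paralog group. Genes of low group number are active from the hindbrain backwards, and genes of high group number are restricted to the trunk, tail, limbs and genital region, so that the order on the chromosome follows the order along the body. The forebrain and midbrain lie in front of the Hox domain. Cells in culture, fibroblasts among them, often keep the Hox pattern of the place they came from. Polycomb proteins hold silent Hox genes shut, trithorax proteins keep active ones open, and retinoic acid and Cdx factors turn them on in the embryo. Hox proteins bind DNA together with cofactors of the Pbx, Meis and Prep families.

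The sequences before the start sites are shown first for Hoxa2, Hoxa3, Hoxa5 and Hoxd8, since the results below turn on these genes and on Hoxb2 and Hoxb3. Each is the 250 bases upstream of the RefSeq start (GRCm38.p6), 5′ to 3′ on the strand of the gene. Capitals mark 3 motifs searched on both strands, TGATNNAT of Hox and Pbx pairs, TGACAG of Meis and Prep factors, and AGGTCA, the half-site of nuclear receptors such as those for retinoic acid. A marked stretch reads as the motif or as its reverse complement. The start listed for Hoxa3 lies between those of Hoxa6 and Hoxa7, which are farther from the Hoxa2 end of the cluster than Hoxa5.
Hoxa2, chr6:52164832-52165081, minus strand: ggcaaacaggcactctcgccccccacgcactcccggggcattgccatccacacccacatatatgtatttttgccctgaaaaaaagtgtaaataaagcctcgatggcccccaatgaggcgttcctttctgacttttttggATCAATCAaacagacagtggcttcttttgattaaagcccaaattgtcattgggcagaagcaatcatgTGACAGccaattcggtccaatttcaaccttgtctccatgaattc
Hoxa3, chr6:52213068-52213317, minus strand: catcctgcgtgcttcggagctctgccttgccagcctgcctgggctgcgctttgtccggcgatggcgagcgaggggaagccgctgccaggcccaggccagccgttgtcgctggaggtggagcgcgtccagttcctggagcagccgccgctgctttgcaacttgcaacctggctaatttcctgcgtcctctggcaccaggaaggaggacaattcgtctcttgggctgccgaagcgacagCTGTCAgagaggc
Hoxa5, chr6:52204588-52204837, minus strand: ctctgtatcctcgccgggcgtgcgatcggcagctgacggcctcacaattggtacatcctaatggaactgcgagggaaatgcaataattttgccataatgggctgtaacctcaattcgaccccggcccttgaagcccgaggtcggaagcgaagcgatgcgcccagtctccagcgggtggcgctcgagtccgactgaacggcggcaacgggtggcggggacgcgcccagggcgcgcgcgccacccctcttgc
Hoxd8, chr2:74704365-74704614, plus strand: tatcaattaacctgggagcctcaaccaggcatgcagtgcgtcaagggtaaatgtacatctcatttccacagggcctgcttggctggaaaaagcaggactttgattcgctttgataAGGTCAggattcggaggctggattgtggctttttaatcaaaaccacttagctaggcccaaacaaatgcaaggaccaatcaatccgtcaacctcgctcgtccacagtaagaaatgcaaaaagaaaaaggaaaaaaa
Hoxa2 held 1 TGATNNAT and 1 TGACAG, Hoxa3 held 1 TGACAG, Hoxd8 held 1 AGGTCA, and Hoxa5 held none of the 3 motifs in this window. Over 32851 windows of the same length, 7.68% held TGATNNAT, 15.9% held TGACAG and 14.0% held AGGTCA. A match describes the letters and not a site in use. The windows of Hox genes were rich in the dinucleotide CG, which marks CpG islands, with a median of 12.5 and a range of 2 to 35 over 24 windows, against a median of 6 over all windows. Of the genes detected on an induced array 7 had such a window, with a median of 13 CG and a range of 6 to 28. Of those detected on MEF alone 7 had one or more, 9 windows in all, with a median of 13 and a range of 2 to 31. Hoxb2 and Hoxb3 are named without a sequence.

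Values are linear MAS5 signals, and a gene took its brightest probe set. The floor was a signal of 103.9. It was set from 86 probe sets of chemosensory receptors (of smell, pheromones and taste), as the 95th percentile on the array where that was highest. A fold against an array below the floor is a bound, written "at least". The same percentile was 37.1 on NSC, 99.4 on iNSC_13F and 70.9 on iNSC_14F, so the background itself differed between arrays, and levels below the floor are given no order. Hybridization controls were 1.85-fold to 2.11-fold brighter on the other arrays than on NSC. The labelled cell types were checked against markers. Of 9 neural stem cell markers 9 were above the floor on NSC and 8 on each induced array, against 3 on MEF. Of 11 fibroblast markers 10 were above it on MEF, 3 on NSC, 6 on iNSC_13F and 3 on iNSC_14F. On MEF the summed signal of these 11 was 170858, against 4210 on iNSC_13F, 4103 on iNSC_14F and 1492 on NSC, and Col1a1 was below the floor on NSC and on both induced arrays. Their part in the Hox results was not tested. The markers of hepatocytes (Alb, Apoa1, Ttr, Afp and Hnf4a) and of pluripotent cells (Pou5f1, Nanog, Zfp42, Dppa5a and Utf1) were below the floor on all 4 arrays, although the source label names embryonic stem cells. Of 5 B lymphocyte markers only Ebf1 was above it, and it was so on all 4 arrays.

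The arrays differed in how much of the Hox system was on. The fibroblasts had Hox genes of all 4 clusters and of paralog groups from 2 to 13 other than 7 and 12, the neural stem cells had almost none, and the induced cells had mainly genes toward the anterior end of the Hoxa and Hoxb clusters. On MEF 23 of the 33 genes were above the floor, where 58% of all genes were. On NSC 1 of 33 was, against 54.2% of all genes, but with the lower floor of the NSC array itself it was 5, and under 3 other settings it was 0. On iNSC_13F the count was 10 of 33 (55.9% of all genes) and on iNSC_14F it was 7 of 33 (54.7% of all genes). With the floor at the 75th percentile the count on iNSC_13F was 16. The induced arrays thus lay between NSC and MEF in this count.

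**Figure D1:**
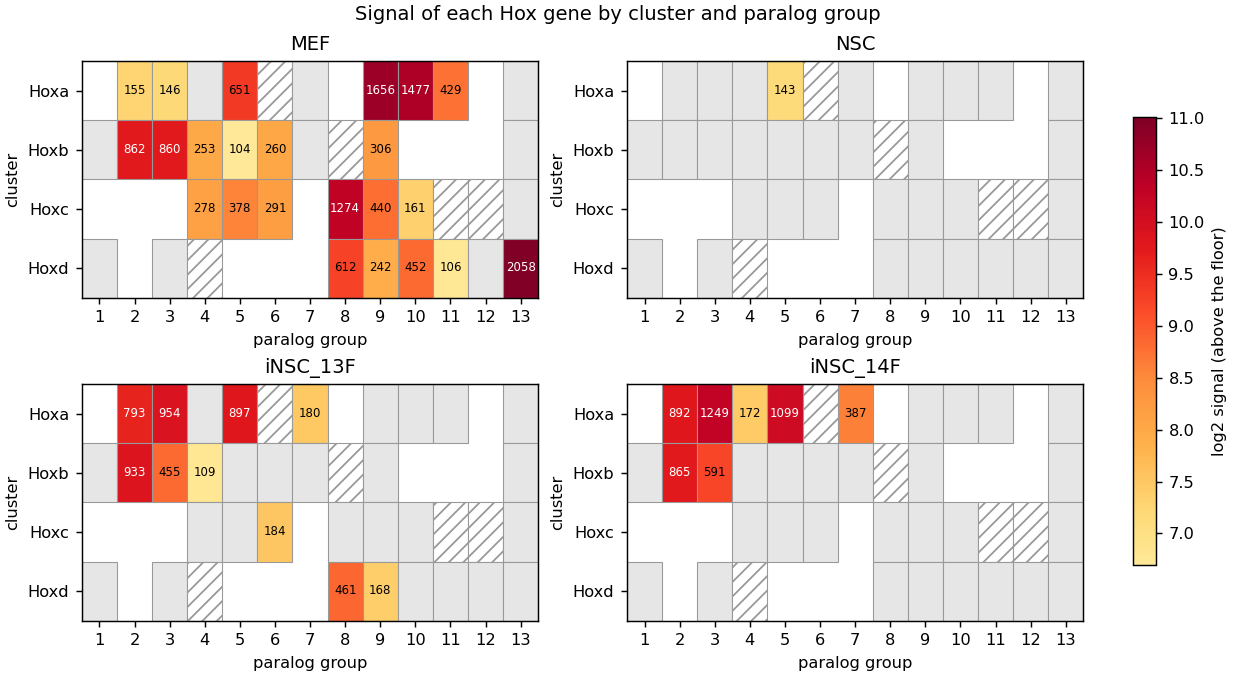
Signal of each Hox gene on the 4 arrays, one panel per array, with the paralog group (1 to 13) on the horizontal axis and the cluster on the vertical axis. Colour and number give the signal above the floor of 103.9 (log2 colour scale), grey squares are below the floor, hatched squares have no probe set of their own, and blank places hold no gene described here. MEF has filled squares in all 4 clusters, NSC holds Hoxa5 alone, and the filled squares of iNSC_14F lie in Hoxa and Hoxb at groups 2 to 7. Of these iNSC_13F lacks Hoxa4, and it adds Hoxb4, Hoxc6, Hoxd8 and Hoxd9.

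By paralog group the arrays separated further. Of 13 genes of groups 1 to 5, 9 were above the floor on MEF, 6 on iNSC_13F, 6 on iNSC_14F and 1 on NSC. Of 6 genes of groups 6 to 8, the counts were 4, 3, 1 and 0 in the same order. Of 14 genes of groups 9 to 13, they were 10, 1, 0 and 0, and the 1 gene on iNSC_13F was Hoxd9. Of the 10 genes of groups 10 to 13, 6 were above the floor on MEF and none on the other arrays. This depended on the floor. With the floor at the 75th percentile, Hoxa11, Hoxa13, Hoxc10 and Hoxd12 passed it on iNSC_13F and Hoxa11 on iNSC_14F. Hoxa11 also passed the floor of the iNSC_14F array itself. By cluster, iNSC_14F had 5 of 9 Hoxa genes, 2 of 9 Hoxb genes, 0 of 7 Hoxc genes and 0 of 8 Hoxd genes above the floor. On iNSC_13F these counts were 4, 3, 1 and 2, and on MEF they were 6, 6, 6 and 5.

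The sets of arrays on which a gene was above the floor fell into few patterns. Hoxa2, Hoxa3, Hoxb2 and Hoxb3 were above it on MEF and both induced arrays and below it on NSC. Hoxa5 was above it on all 4 arrays. Hoxa7 was above it on both induced arrays alone and Hoxa4 on iNSC_14F alone. Hoxb4, Hoxc6, Hoxd8 and Hoxd9 were above it on MEF and iNSC_13F. A further 14 genes were above it on MEF alone, and 8 were below it on every array.

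**Figure D2:**
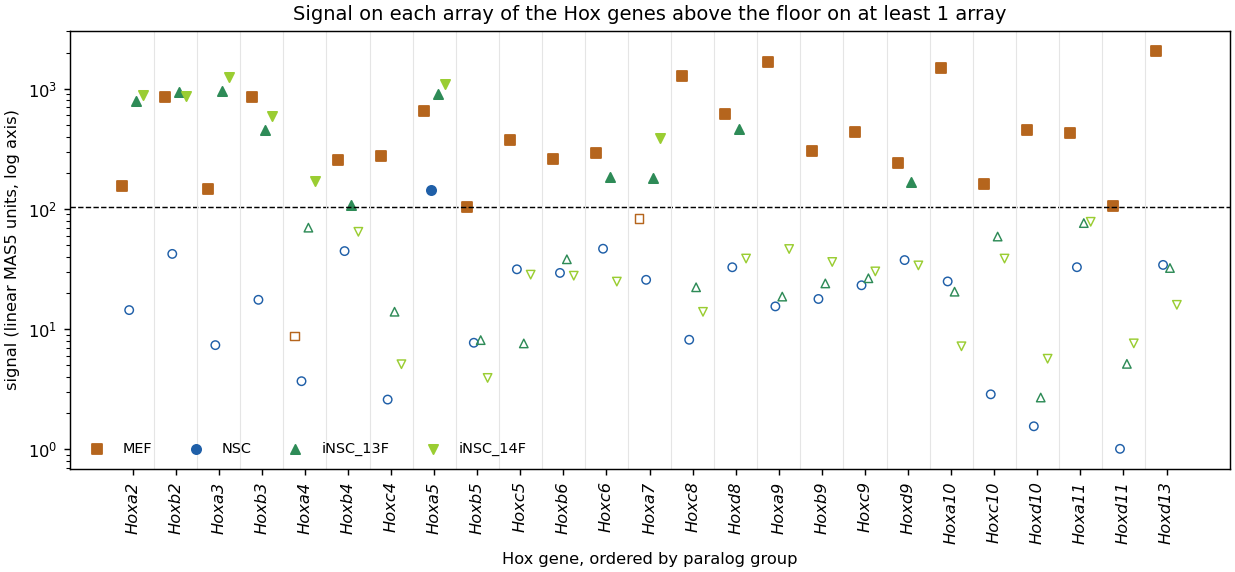
Signal on each array (log axis, linear MAS5 units) of the 25 Hox genes that pass the floor on any array, ordered by paralog group. Filled symbols are above the floor of 103.9 (dashed line) and open symbols are below it, so the height of an open symbol carries no order. Induced samples stand with or above MEF for Hoxa2, Hoxb2, Hoxa3 and Hoxa5, and from Hoxa9 to Hoxd13 MEF stands alone but for Hoxd9.

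Among the anterior members, Hoxa2 and Hoxa3 were higher in the induced cells than in either reference with the probe sets used. Hoxa2, which patterns the hindbrain and the neural crest of the second arch, had signals of 155 on MEF, 14.4 on NSC, 793 on iNSC_13F and 892 on iNSC_14F. The induced samples were thus 5.12-fold and 5.76-fold above MEF and at least 7.63-fold and at least 8.58-fold above NSC. Hoxa3, needed for the thymus, the parathyroid and parts of the neck, had signals of 146, 7.36, 954 and 1249 in the same order. It was 6.52-fold and 8.53-fold above MEF, and at least 9.19-fold and at least 12.02-fold above NSC. Both induced samples were above both references for these genes.

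Hoxb2 and Hoxb3 were above the floor in MEF and in both induced samples, and neither was at least 2-fold apart between MEF and an induced sample. Hoxb2, a gene of the hindbrain that acts in the facial motor region, had signals of 862 on MEF, 42.3 on NSC, 933 on iNSC_13F and 865 on iNSC_14F. The 3 samples other than NSC lay within 1.08-fold of one another, and NSC was at least 8.29-fold below MEF. Hoxb3, which acts in the hindbrain beside Hoxa3, had signals of 860, 17.5, 455 and 591. Its induced levels were 1.89-fold and 1.45-fold below MEF and at least 4.37-fold and at least 5.69-fold above NSC. On its other probe set Hoxb3 was above the floor on MEF (134) and iNSC_14F (128) and below it on iNSC_13F (12.9).

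Hoxa5, a gene of the neck and upper thorax that is needed for the lung, was the member with a value above the floor on NSC. Its signals were 651 on MEF, 143 on NSC, 897 on iNSC_13F and 1099 on iNSC_14F. NSC was 4.55-fold below MEF, and the induced samples were 6.28-fold and 7.69-fold above NSC. They were 1.38-fold and 1.69-fold above MEF, which is less than the 2.32-fold within which 95% of genes lay between the induced arrays. The NSC value rests on 1 of its 2 probe sets, one that can match other transcripts (suffix _x_at). The other read 485, 2.9, 693 and 997, so it was below the floor on NSC.

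The remaining genes of groups 1 to 5 were low or off in the induced cells. Hoxa4, a neck gene between Hoxa3 and Hoxa5, had signals of 8.8, 3.69, 69.9 and 172, and was above the floor on iNSC_14F, at least 1.66-fold above the other arrays. Hoxb4, known for expanding blood stem cells, had 253 on MEF, 44.6 on NSC, 109 on iNSC_13F and 64.6 on iNSC_14F. iNSC_13F was 2.33-fold below MEF and just above the floor. Hoxc4 (278 on MEF) and Hoxc5 (378 on MEF) were below the floor elsewhere, at least 2.67-fold lower for Hoxc4 and 3.64-fold for Hoxc5. Hoxb5 reached 104.1 on MEF, at the floor itself, and was below it on the other 3 arrays. Hoxb1, the hindbrain gene of the fourth rhombomere, and Hoxd1 and Hoxd3 were below the floor everywhere.

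In groups 6 to 8 the 2 induced samples parted. Hoxa7, a gene of the upper thorax, had signals of 83.1 on MEF, 25.7 on NSC, 180 on iNSC_13F and 387 on iNSC_14F. It was at least 3.72-fold above MEF and above NSC on iNSC_14F, at least 1.73-fold on iNSC_13F, and 2.15-fold higher on iNSC_14F than on iNSC_13F, which is under the 2.32-fold yardstick. Hoxd8, a trunk gene, went the other way with signals of 612, 32.7, 461 and 38.7. It was 1.33-fold lower on iNSC_13F than on MEF, and iNSC_14F was at least 4.44-fold below iNSC_13F. The other probe set of Hoxd8 read 264, 21.9, 371 and 58.7, so both were above the floor on MEF and iNSC_13F alone, while the order of these 2 arrays turned. Hoxc6, a gene of the forelimb level, had signals of 291, 46.7, 184 and 24.9, so it too was above the floor on MEF and iNSC_13F. Its 3 probe sets were all above the floor on MEF, and 2 of them were on iNSC_13F. Hoxc8, which sets motor neuron pools of the lower neck, had 1274 on MEF and between 8.16 and 22.3 on the others, at least 12.3-fold lower. Hoxb6 had 260 on MEF and at least 2.50-fold less elsewhere. Hoxb7 was below the floor on every array. Of the fibroblast markers, 6 of 11 passed the floor on iNSC_13F and 3 on iNSC_14F, with summed signals of 4210 and 4103. Among them the mesenchymal factor Twist1, picked after its values were seen, read 1241 on iNSC_13F and 54.7 on iNSC_14F. Thy1 read 472 and 171. Fn1, which encodes fibronectin, went the other way with 1954 and 3534, a 1.81-fold difference under the 2.32-fold yardstick. Col1a1, Twist2 and Dcn were below the floor on both. Of 6 fibroblast markers measured on this pair, 2 (Twist1 and Thy1) were at least 2-fold lower on iNSC_14F and 0 higher. Of all genes 2.97% were lower and 6.03% higher. The part of these markers in the difference of Hoxd8, Hoxc6 and Hoxd9 between the induced samples was not tested.

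In groups 9 to 13 the induced cells were below the floor together with NSC for all genes but Hoxd9. Hoxa9, a gene of the lower trunk and of blood progenitors, had signals of 1656 on MEF, 15.5 on NSC, 18.6 on iNSC_13F and 46.4 on iNSC_14F, at least 15.9-fold below MEF on all 3. Hoxa10 and Hoxa11, which act in the limb and the uterus, read 1477 and 429 on MEF. On the other arrays Hoxa10 was at least 14.2-fold lower and Hoxa11 at least 4.13-fold lower. Hoxd13, which shapes the digits, read 2058 on MEF and 34.2, 32.3 and 15.9 on NSC, iNSC_13F and iNSC_14F, at least 19.8-fold lower. Its other probe set was above the floor on MEF (117) and below it on the other arrays. Hoxd10 had 452 on MEF and at most 5.67 elsewhere, which is at least 4.35-fold less. Hoxc9, which separates thoracic from limb motor neurons, had 440 on MEF and was at least 4.23-fold lower elsewhere. Hoxb9 had 306 on MEF, at least 2.94-fold above the rest. Hoxc10 (161) and Hoxd11 (106) were above the floor on MEF by less than 2-fold. Hoxd9 was the exception, with 242 on MEF, 37.6 on NSC, 168 on iNSC_13F and 33.9 on iNSC_14F, so that iNSC_13F was 1.44-fold below MEF. Hoxa13, Hoxb13, Hoxc13 and Hoxd12 were below the floor on all arrays.

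The pairs of arrays were then compared by size, and a gene was called where its higher signal passed the floor and was at least 2-fold the lower one. In NSC against MEF, which sets the neural reference against fibroblasts, 18 Hox genes were at least 2-fold lower and 0 higher, and 11 were at least 4-fold lower. Of all 11492 genes measured on that pair, 17.5% were at least 2-fold lower, 19.9% higher 6.09% at least 4-fold higher and 7.21% at least 4-fold lower. The 23 measured Hox genes had a median log2 difference of -1.86, against -0.01 for all genes. Since 22 of the 23 were measured through MEF alone, they could differ in 1 direction only and their folds are bounds. The log2 difference of Hoxa5, measured on both, was -2.19, and -1.30 when arrays were scaled to their hybridization controls. That scaling moved the median of all genes to 0.80 and the share of calls that were higher in NSC from 53.2% to 82.5%. The count of Hox genes higher in NSC stayed at 0. Only Hoxa5 passed the floor on NSC under that scaling, so the other Hox genes could not be higher there.

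The induced cells were compared with MEF to see which part of the fibroblast pattern they shared. In iNSC_13F 12 Hox genes were at least 2-fold lower and 2 higher, where 20.9% and 15.6% of all genes were. In iNSC_14F 15 were lower and 3 higher, against 19% and 18% of all genes. At 4-fold, 7 were lower and 2 higher in iNSC_13F (9.27% and 3.66% of all genes), and 8 were lower and 2 higher in iNSC_14F (8.03% and 4.49%). The genes at least 2-fold higher were Hoxa2 and Hoxa3 on both arrays, with Hoxa7 added on iNSC_14F. By group, the median log2 differences on iNSC_13F and iNSC_14F were -0.66 and -1.48 for groups 6 to 8, with bounds for 3 and 5 of the 5 measured members. For groups 9 to 13 both were -2.06, with bounds for 9 and 10 of the 10 measured members. For groups 1 to 5 the median falls on or beside the bound of Hoxb5, so the counts are given instead, 2 higher and 3 lower on each induced array. These comparisons share the MEF array.

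**Figure D3:**
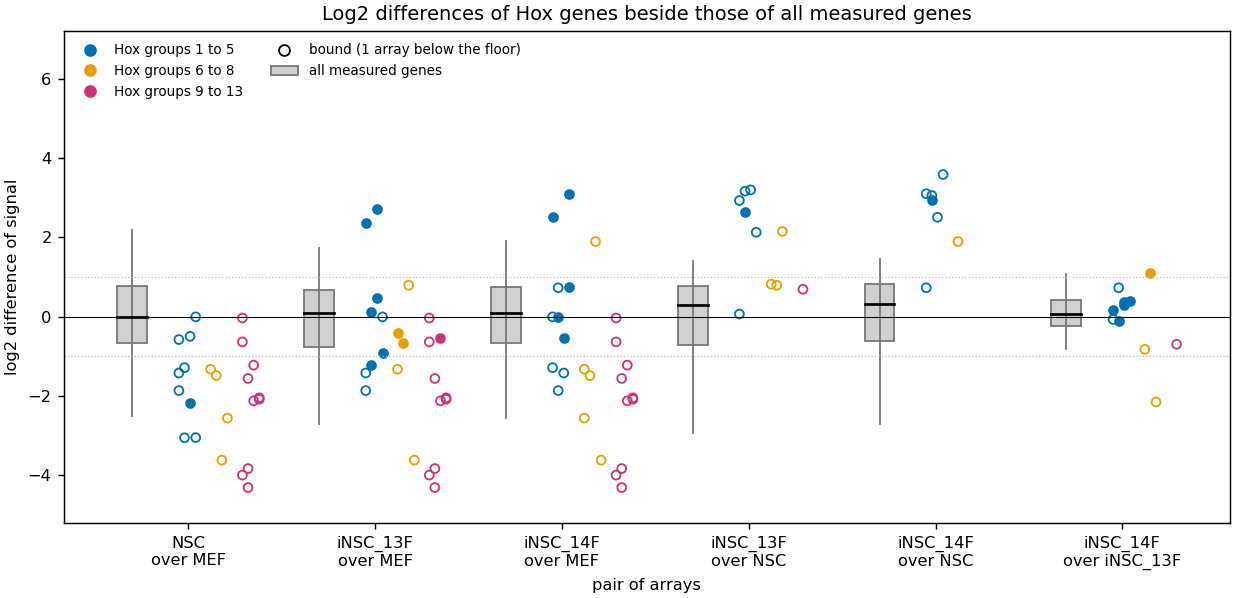
Log2 difference of signal for each pair of arrays, with all measured genes as a grey box (25th to 75th percentile, line at the median, whisker from the 5th to the 95th percentile) and Hox genes as points coloured by paralog group. Open points are bounds with 1 array below the floor, and dotted lines mark 2-fold. Against MEF the points of groups 9 to 13 lie below 0 on all 3 arrays, while Hoxa2 and Hoxa3 lie above 2 on both induced arrays.

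Against NSC the measured Hox genes could differ in the higher direction alone, except Hoxa5, since NSC was below the floor for all others. In iNSC_13F 6 were at least 2-fold higher and 0 lower, where 14.8% and 20.8% of all genes were, and all 6 were at least 4-fold higher (1.07% of all genes, with 11.3% at least 4-fold lower). In iNSC_14F 6 were higher and 0 lower, against 16.9% and 19.3%, and 5 were at least 4-fold higher (1.42%, with 9.4% lower). Hoxa2, Hoxa3, Hoxa5, Hoxb2 and Hoxb3 were in both sets, Hoxd8 was in that of iNSC_13F and Hoxa7 in that of iNSC_14F. The other measured members on iNSC_13F were Hoxa7, Hoxc6, Hoxd9 and Hoxb4, with bounds from 1.05-fold to 1.77-fold, and on iNSC_14F it was Hoxa4. All but Hoxa5 were bounds. Both comparisons share the NSC array. Scaling to the hybridization controls moved the share of all calls that were higher from 41.7% to 3.28% on iNSC_13F and from 46.7% to 6.9% on iNSC_14F, and quantile normalization moved the first to 53.1%. Under that scaling the log2 difference of Hoxa5 from NSC went from 2.65 to 1.58 on iNSC_13F and from 2.94 to 2.04 on iNSC_14F.

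The 18 Hox genes at least 2-fold higher in MEF than in NSC were placed by their induced level. Values below the floor were set to it here, so a gene within 2-fold of an NSC value below the floor is one less than 2-fold above the floor, which is no measured likeness to NSC. On iNSC_13F, 12 were within 2-fold of NSC alone in this sense, where 50.3% of the 2011 genes so called were. Another 4 (Hoxa5, Hoxb2, Hoxb3 and Hoxd8) were within 2-fold of MEF alone, against 22.7% of such genes, and 2 (Hoxc6 and Hoxd9) were within 2-fold of MEF and less than 2-fold above the floor, against 15.7%. On iNSC_14F 15 were within 2-fold of NSC, against 49.3%, 3 (Hoxa5, Hoxb2 and Hoxb3) within 2-fold of MEF, against 21.3%, and 0 within 2-fold of both, against 16.9%. Hoxa5, Hoxb2 and Hoxb3 were thus near the MEF level on both arrays with the probe sets used. With the median of its probe sets Hoxb3 was below the floor on iNSC_13F. The counts near MEF alone, 4 and 3 of 18, were not above the shares of all such genes.

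The induced samples were compared with each other. Of 11 measured Hox genes 1, Hoxa7, was at least 2-fold higher on iNSC_14F and 1, Hoxd8, at least 2-fold lower, where 6.03% and 2.97% of all genes were. At 4-fold the counts were 0 and 1, against 0.5% and 0.342% of all genes. With the hybridization controls as the scale, 82.3% of all calls were higher on iNSC_14F, against 67% otherwise. Hoxa2, Hoxa3, Hoxa5, Hoxb2 and Hoxb3 were within 1.31-fold on these arrays. Hoxc6 was lower on iNSC_14F by at least 1.77-fold and Hoxd9 by at least 1.62-fold, and such bounds do not tell whether the difference passes 2.32-fold. Across the 25 Hox genes that passed the floor on any array, Pearson's r was 0.897 between the induced arrays, 0.405 and 0.429 between each and NSC, and 0.022 and -0.085 between each and MEF. Over all 12320 such genes it was 0.964, 0.807 and 0.831, and 0.764 and 0.766. The points here are genes of 1 pair of arrays, not replicates, and they share the floor value wherever neither array passes it. On NSC only Hoxa5 passed the floor and the others were set to it. The Hox r with NSC thus rests on that gene and cannot be set against the r with MEF.

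**Figure D4:**
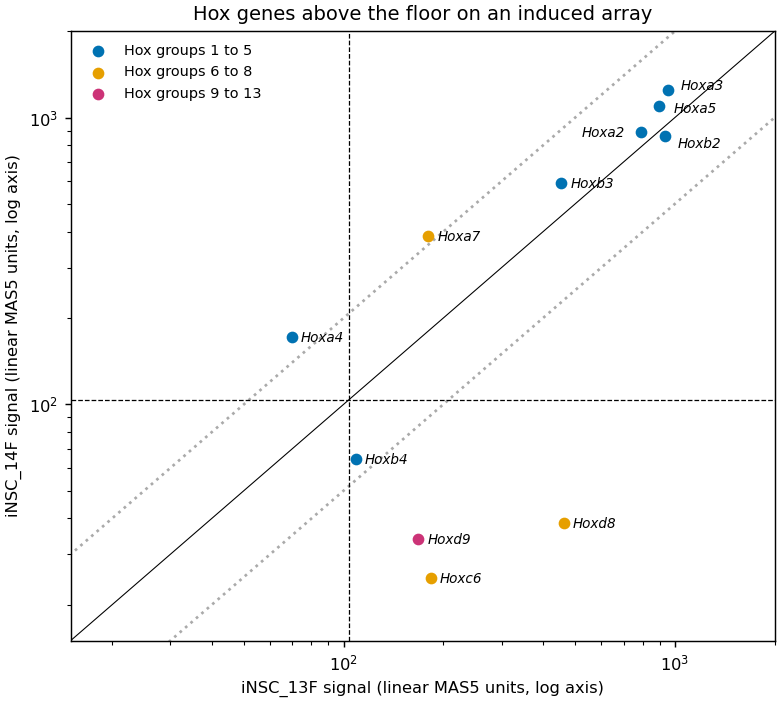
Signal on iNSC_13F (horizontal) and iNSC_14F (vertical), both log axes, of the 11 Hox genes that pass the floor on either. Dashed lines mark the floor of 103.9, the solid line equality and dotted lines 2-fold. Hoxa2, Hoxa3, Hoxa5, Hoxb2 and Hoxb3 lie near the diagonal at the upper right, while Hoxd8, Hoxc6 and Hoxd9 are above the floor on iNSC_13F alone.

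The 11 Hox genes with more than 1 probe set were read on each. Hoxa3 had 4 probe sets. The brightest, of the kind that can match several transcripts (suffix _s_at), was given above, and the next read 101 on MEF, 15.5 on NSC, 380 on iNSC_13F and 313 on iNSC_14F. Both put the induced samples at least 2-fold above both references, and the other 2 probe sets were below the floor on all arrays. With the median of the 4, Hoxa3 was below the floor on MEF and NSC. On both induced arrays it was then above the floor by less than 2-fold. Hoxa9 was lower on all 3 arrays than on MEF with both of its probe sets, as the second read 495 on MEF and at most 92.4 elsewhere. Hoxa10 and Hoxc5 had 1 probe set each above the floor on MEF, of 2 and of 3. Hoxa4 and Hoxb4 had 2 each, and the one not used was below the floor on all arrays. On MEF, NSC, iNSC_13F and iNSC_14F it read 64.4, 2.82, 3.78 and 87.2 for Hoxa4. For Hoxb4 it read 76.9, 27.4, 6.54 and 4.12. Probe sets of 1 gene share its transcripts and are no replicates.

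**Figure D5:**
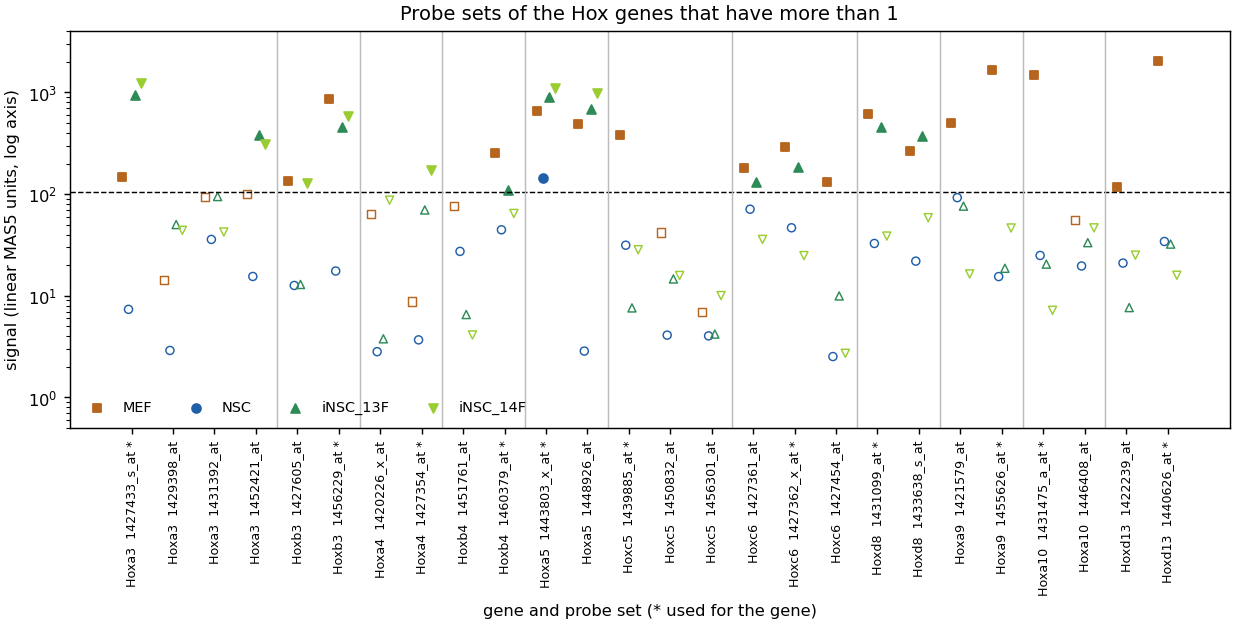
Signal on each array (log axis, linear MAS5 units) of every probe set of the 11 Hox genes that have more than 1, grouped by gene, with an asterisk at the probe set used. Filled symbols are above the floor of 103.9 (dashed line) and open symbols below it. Both probe sets of Hoxd8 are above the floor on MEF and iNSC_13F alone, 2 of the 4 of Hoxa3 are above it on both induced arrays, and NSC is above it on 1 of the 2 probe sets of Hoxa5.

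Other genes of the Hox system were read from lists in the same way. Of cofactor genes of the Pbx, Meis and Prep families 8 had a probe set, and 6 or 7 of them passed the floor on each array. Of all genes 54.2% to 58% did. Against NSC, 1 of 7 measured was at least 2-fold lower and 0 higher in iNSC_13F, where 20.8% and 14.8% of all genes were. In iNSC_14F 3 of 6 were higher and 1 lower, where 16.9% and 19.3% of all genes were. Meis2 was the lower one on both, with signals of 906 on MEF, 2175 on NSC, 373 on iNSC_13F and 1034 on iNSC_14F. Pknox1, which encodes a Prep cofactor, read 416, 557, 1064 and 1393, and Pbx2 and Pbx3 also read highest on iNSC_14F (1166 and 3506).

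A further list held genes that make, bind or sense retinoic acid, with the Cdx genes and Gdf11. Of the 18 on the array, 11 passed the floor on MEF, 2 on NSC, 5 on iNSC_13F and 3 on iNSC_14F. Of all genes 58%, 54.2%, 55.9% and 54.7% did, in the same order. Cdx1, Cdx2 and Cdx4 passed the floor on none. Relative to MEF 6 of 11 measured were at least 2-fold lower in NSC, 4 of 11 on iNSC_13F and 6 of 11 on iNSC_14F, where 17.5%, 20.9% and 19% of all genes were. Of these 11, 9, 6 and 8 were bounds, so the count of 0 higher in each pair was largely fixed. Crabp1 and Crabp2, the cellular binding proteins of retinoic acid, read 4226 and 4280 on MEF and were below the floor on the other 3 arrays. Aldh1a2, the synthesis enzyme of the trunk, read 489 on MEF and was below the floor on the others. Aldh1a3, another synthesis enzyme, read 1120 on MEF, 5.78 on NSC, 601 on iNSC_13F and 51.2 on iNSC_14F. It was above the floor on the same arrays as Hoxb4, Hoxc6, Hoxd8 and Hoxd9, and a link between them was not tested.

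Polycomb genes were both higher and lower in the induced cells than in NSC. Of 26 with a probe set, 9 were higher in NSC than in MEF by at least 2-fold and 0 were lower, of 22 measured, where 19.9% and 17.5% of all genes were. Relative to NSC 7 of 22 were lower on iNSC_13F and 7 of 23 on iNSC_14F, where 20.8% and 19.3% of all genes were. Higher were 3 and 1, where 14.8% and 16.9% of all genes were, and the list medians were -0.35 and 0.0031 against 0.30 and 0.33 for all genes. Suz12, a core subunit of the complex that methylates histone H3, read 1379 on MEF, 3431 on NSC, 294 on iNSC_13F and 495 on iNSC_14F. Ezh2, its enzyme, read 1249, 5755, 1394 and 1886, and Mtf2, an accessory subunit, 477, 1487, 152 and 178. Phc3, of the other Polycomb complex, read 406, 684, 126 and 216. Of 14 trithorax genes and related factors, 5 were higher than in NSC by at least 2-fold and 4 were lower on each induced array. Of all genes 14.8% and 16.9% were higher and 20.8% and 19.3% lower on these pairs. Kdm6a, a demethylase of the same histone mark, read 489, 1341, 135 and 87.4, and Kmt2d read 1064, 262, 982 and 1233. When arrays were scaled to the hybridization controls, the Polycomb medians against NSC were -1.19 and -0.58 and the trithorax ones turned from 0.54 and 0.76 to -0.54 and -0.14, where the medians of all genes were -0.65 and -0.48. The cofactor medians against NSC turned in the same way, from 0.21 and 0.77 to -0.39 and -0.13.

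Of the hindbrain segment genes 9 had a probe set. Egr2, which turns on Hoxa2 and Hoxb2 in the hindbrain, read 3785 on MEF, 626 on NSC, 425 on iNSC_13F and 673 on iNSC_14F. Nr2f1, a nuclear receptor, read 380 on MEF and 4082, 4819 and 7095 on the others. Nr2f2, its relative, read 775, 221, 776 and 886, so the induced samples were near MEF. Epha4, an ephrin receptor of rhombomere borders, was above the floor on MEF alone (329).

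Genes beside the clusters were split. Of 19 neighbours with a probe set, 2 were higher in NSC than in MEF by at least 2-fold and 1 was lower, of 14 measured, where 19.9% and 17.5% of all genes were. Relative to MEF 1 of 15 was higher and 2 lower on iNSC_13F (15.6% and 20.9% of all genes), and 3 of 14 were higher and 1 lower on iNSC_14F (18% and 19%). Skap2, an adaptor gene at the anterior side of the Hoxa cluster, read 1484 on MEF, 467 on NSC, 3027 on iNSC_13F and 4604 on iNSC_14F. It was higher on both induced arrays than on either reference. Above MEF it was 3.10-fold on iNSC_14F but 2.04-fold on iNSC_13F, which is under the 2.32-fold yardstick. Lnpk, beside the posterior end of the Hoxd cluster, read 809, 829, 183 and 148 and so was lower on both induced arrays than on either reference. The 6 ParaHox and Evx genes with a probe set were below the floor, except Evx2 with 177 on iNSC_13F.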

How the data were processed

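Total RNA of 4 cultures was measured on 1 Affymetrix Mouse Genome 430 2.0 array each. The authors deposited linear intensity values per probe set, computed with MAS5 per the submitters' processing notes. The MAS5 version and its options were not given in the sources used here. In the deposited table the trimmed mean of each array, leaving out 2% at each end, was 500. Only these values were used.

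Of 45101 probe sets, 64 were controls, 34945 had 1 gene symbol in the platform annotation and 932 had several and were used only where named as shared. Values under the floor were set to it and log2 was taken. A gene took the probe set with the highest mean log2 signal after the floor. A call was a difference of at least 2-fold where the higher value passed the floor, over genes that passed it on either array of the pair. Values are given for every Hox gene above the floor on an array, those below it on all arrays are named only, and up to 4 genes of each other list are named, those with the largest difference. Twist1, Thy1 and the absent markers were named after their values were seen. The members and lists were chosen with earlier results of these data known, and the probe set rule and the 86 receptor probe sets were settled after values had been seen. Choosing the probe set before the floor was kept as an alternative. With 1 array in each group, the number of arrays limits the precision and there is no test. In all, 10 alternatives changed scaling, floor, probe set choice or the genes counted. One item is not reported here. Promoter windows came from RefSeq (GRCm38.p6). The work was done in Python 3.11.15 with numpy 2.4.6, pandas 2.3.3 and matplotlib 3.10.9.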

Additional observations from a re-analysis of the deposited data

How the results depend on the processing

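Over the 10 alternatives, 129 of 152 counts of Hox genes stayed within 1.5 times the value given. In the same alternatives, single Hox genes were followed where the difference given above was at least 2-fold. Of these differences 219 of 581 moved by more than the SD between the induced arrays, 0.59 (log2), and 0 changed direction. Most were bounds with 1 array below the floor, so their direction was largely fixed in advance. Of 531 medians of gene lists, 73 moved by more than that SD, and 1 more, of at least 2-fold, turned to the other direction. The cause of the other 23 changes in counts was not tested, apart from those that follow from the floor or the genes counted. Shares in brackets here are of all genes measured on the pair under the same setting. With the floor at the 75th percentile, iNSC_13F had 16 Hox genes above it, and 10 were higher in iNSC_13F than in NSC (18.4%). In iNSC_14F 2 were higher (6.67%) and 3 lower (5.78%) than in iNSC_13F. With the 99th percentile NSC had 0 above it and 9 were lower in iNSC_14F than in MEF (18%). With the floor of each array itself NSC had 5 above it (Hoxa5, Hoxb2, Hoxb4, Hoxc6 and Hoxd9). In that setting 10 were higher in iNSC_13F than in NSC (19.7%), and 3 were lower in iNSC_14F than in iNSC_13F (4.16%). With no floor and a pseudocount of 16 these last counts were 10 (20%) and 3 (5.83%), with 2 higher in iNSC_14F than in iNSC_13F (7.38%). With the median of probe sets NSC had 0 above the floor. In that setting 1 was higher in iNSC_13F than in MEF (14.9%), and Hoxa3 was no longer called. In the same setting 2 were higher in iNSC_14F than in iNSC_13F (4.82%), and Hoxb3 was below the floor on iNSC_13F. Without probe sets of suffix _s_at or _x_at NSC had 0 above the floor. Quantile normalization gave 2 lower in iNSC_14F than in iNSC_13F (3.58%). Restricting the counts to genes that passed the floor on both arrays left 1 lower in NSC (14.6%), 1 in iNSC_13F (17.9%) and 0 in iNSC_14F (15.8%) than in MEF. It left 1 higher in iNSC_13F (16.1%) and 1 in iNSC_14F (18%) than in NSC, and 0 lower in iNSC_14F than in iNSC_13F (2.73%). It turned the median of Hox genes in iNSC_14F over MEF from -1.32 to 0.76, since it leaves out the genes that are off on one array. Choosing the probe set before the floor, which was tried after seeing the data, left all 16 counts within 1.5 times, and Hoxa9 then fell by 2.25 (log2) from MEF on the other 3 arrays. Scaling to hybridization controls also left all 16 within 1.5 times. The bounds against NSC and in MEF-only genes are limited by the background of the MEF array, and a level below it can be any level. No paired analysis was possible because each group has 1 sample.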

Other observations

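Antisense transcripts of the clusters lie outside the rule for Hox genes and were singled out after their values were seen. Hoxb5os, antisense to Hoxb5, read 680 on MEF, 21.9 on NSC, 18.8 on iNSC_13F and 140 on iNSC_14F, so it was above the floor on MEF and iNSC_14F, where Hoxb5 was at the floor on MEF and below it on iNSC_14F. Hoxa11os read 447 on MEF and at most 53.2 on the other arrays with 1 of its probe sets, and was below the floor on all arrays with the other. Hoxa11 itself was above the floor on MEF alone. Both probe sets of Hoxd3os1 were below the floor on all 4 arrays, as was Hoxd3.

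The probe set shared by Hoxb8 and Hoxb7 read 145 on MEF and between 21.3 and 38.5 on the other arrays. The Hoxb7 probe set was below the floor on all arrays. Both probe sets shared by Hoxd4 and Hoxd3 were below the floor on all arrays.

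Among neighbours of the clusters, Snx10, on the Skap2 side of the Hoxa cluster, read 325 on MEF, 1216 on NSC, 344 on iNSC_13F and 549 on iNSC_14F. Cbx5, the heterochromatin protein gene beside the Hoxc cluster, read 940, 3502, 455 and 945. Both were highest on NSC, where Skap2 was lowest.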
